A study of Mus musculus with 32 samples.

Results

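The collagen genes are described here across the hippocampus of WT and 5xFAD mice. The members are the protein-coding genes whose symbol is Col, a number, a and a number. This rule found 44 of the 54532 genes in the count and FPKM tables, and it used no measured value. Of these, 39 had enough counts to be among the 16723 genes tested. By the protein they encode they were placed in 8 classes. The fibrillar class holds 11 genes, type IV 6, the multiplexins 2, type VI 6, the short-chain network class 3, the fibril-associated class 9 and the transmembrane class 4. The last class takes the 3 that remain, Col7a1, Col26a1 and Col28a1.

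Collagens are extracellular proteins whose chains wind into a triple helix, either from copies of a single chain or from different chains of the same type. Fibrillar collagens form the tensile fibres of skin, bone and vessel walls, type IV collagen forms the sheet-like network of every basement membrane, and fibril-associated collagens decorate fibres. In the healthy brain, little collagen lies between neurons, and the known sources are vessel walls, meninges and choroid plexus. Col25a1 is an exception: it encodes a neuronal transmembrane collagen whose shed part is known as a component of amyloid plaques.

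Hippocampal RNA of 32 mice was sequenced, with 1 library per mouse. The 5xFAD line is a C57BL/6 mouse that carries human transgenes with familial Alzheimer's disease mutations, driven by the neuronal Thy1 promoter, and WT mice carry no transgene. D-45113 is a hydroxyl dendrimer, a branched nanoparticle, that carries an inhibitor of the kinase CSF1R. Mice received 200 mg/kg of D-45113, or vehicle, intraperitoneally from the age of 11 months, with 2 injections in each of 4 weeks, and were studied at 12 months. The vehicle was the dendrimer without the inhibitor, so D-45113 and Veh mice differ in the inhibitor that the dendrimer carries. There are 8 mice, 4 females and 4 males by label, in each of 4 groups: vehicle (WT/Veh and 5xFAD/Veh) and D-45113 (WT/D-45113 and 5xFAD/D-45113). The question asked of each comparison is whether collagen transcripts differ with genotype, with treatment, or with both.

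Libraries held 10707410 to 30368498 counts, of which 1743 to 8475 fell on collagen genes. The genotype labels were checked on transcripts of the disease model. Cst7, a gene of plaque-associated microglia, and Gfap, the astrocyte filament gene, were higher in 16 of 16 5xFAD mice than in any WT mouse, and Thy1, part of whose sequence is in the transgenes, was higher in 14 of 16. Markers of tissue next to the hippocampus varied widely inside each group. Ttr, the transthyretin gene that defines choroid plexus, spanned 17.6 to 4496 CPM (counts scaled to the size of the library) over the 32 mice. Prkcd, a thalamic marker, spanned 11.1 to 354 CPM. Slc6a13, a meningeal fibroblast marker, spanned only 2.12 to 16.6 CPM, and Cldn5, an endothelial marker, 22.3 to 66.5 CPM. In such bulk tissue, fewer cells of a type and less RNA per cell cannot be told apart.

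Collagen transcripts were scarce. On the FPKM scale, which divides counts by gene length and library size, 7 members had a mean above 1 FPKM in WT/Veh, 23 lay between 0.1 and 1 FPKM, and 14 lay at or below 0.1 FPKM. Col25a1 was the highest in WT/Veh, at 3.98 ± 0.787 FPKM (SD, n = 8). Col9a3, a chain of the fibril-associated type IX collagen known from cartilage, followed with 3.00 ± 2.23 FPKM. The basement membrane chains Col4a2 and Col4a1 came next, at 2.41 ± 0.599 and 2.21 ± 0.381 FPKM. Neighbours in this order lay within each other's spread.

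The other members of the top 10 were Col11a2 (a fibrillar chain known from cartilage, 2.05 ± 0.732 FPKM), Col8a2 (a network-forming short chain of vessel walls and the cornea, 1.72 ± 1.60 FPKM) and Col6a1 (a chain of the beaded filaments of type VI, 1.68 ± 0.959 FPKM). Col1a1 and Col1a2, the chains of the main collagen of skin and bone, stood at 0.998 ± 0.325 and 0.993 ± 0.405 FPKM, and Col9a2 at 0.929 ± 0.255 FPKM. Spread differed as much as level. Over the 8 WT/Veh mice Col4a1 ran from 1.78 to 2.74 FPKM, whereas Col8a2 ran from 0.181 to 4.12 FPKM.

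**Figure D1:**
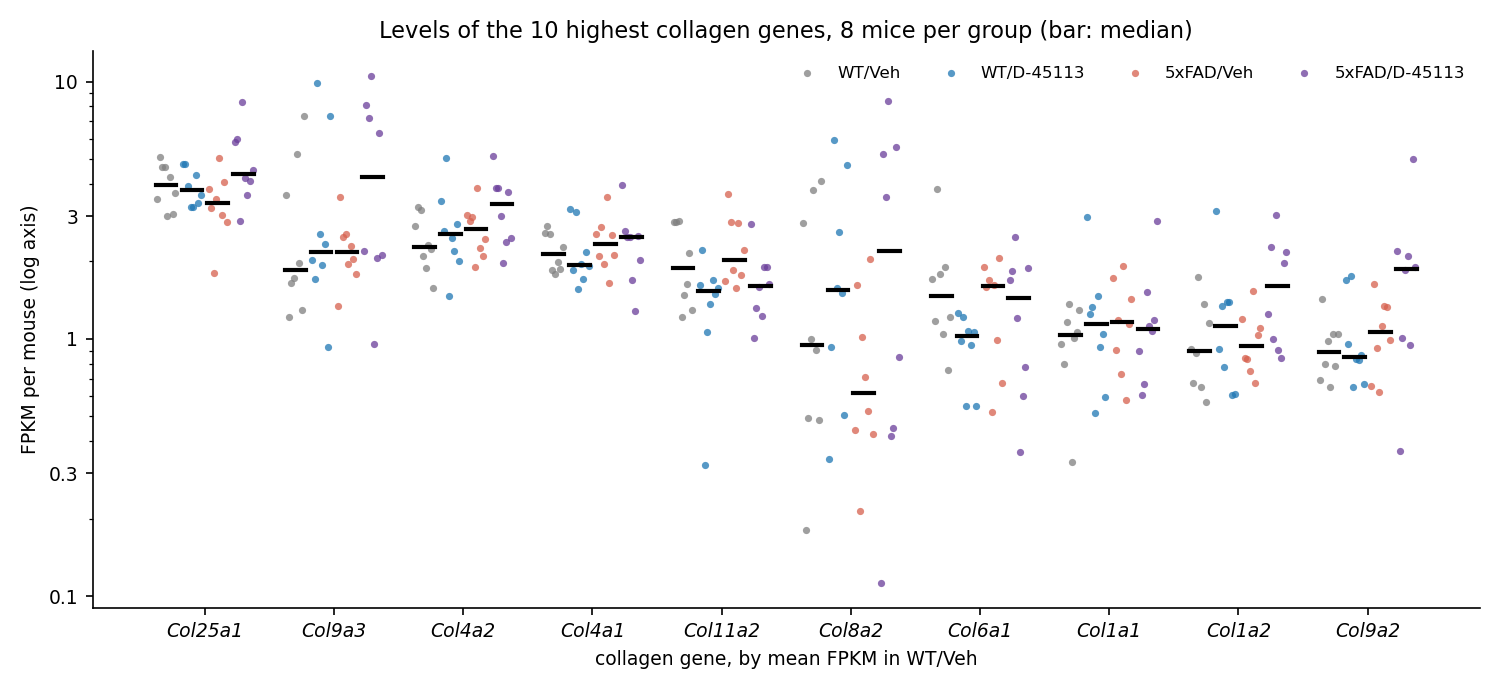
FPKM of the 10 highest collagen genes on a log axis, with a point for each of the 8 mice of a group and a bar at the group median. Col25a1, Col4a1 and Col4a2 form tight columns, while Col8a2 runs from 0.113 to 8.41 FPKM within 5xFAD/D-45113 alone.

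Summed over the 44 genes, collagen came to 28.1 ± 4.61 FPKM in WT/Veh and 26.1 ± 3.99 FPKM in 5xFAD/Veh (SD, n = 8 each). Under D-45113 it came to 28.4 ± 7.65 FPKM in WT mice and 36.7 ± 12.6 FPKM in 5xFAD mice. The 5xFAD/D-45113 mice ranged from 20.4 to 58.3 FPKM and so covered the whole range of the 5xFAD/Veh mice, 21.5 to 31.5 FPKM. In WT/Veh the fibril-associated class made up 21.1% of this sum, type IV 18.7%, the fibrillar class 17.8% and the transmembrane class 17.1%. Type VI gave 10.9%, the short-chain class 8.90% and the multiplexins 4.74%. The short-chain share was the least steady: it ran from 0.787% to 22.0% among the WT/Veh mice.

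Differences between groups are given as log2 fold changes from edgeR's quasi-likelihood test over 16723 genes. A gene counts as called at a Benjamini-Hochberg adjusted p under 0.05. The comparisons share mice: WT/Veh is the reference both for treatment in WT and for genotype under vehicle, and 5xFAD/Veh is the test group of one comparison and the reference of the next.

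D-45113 in WT mice came first. Here edgeR called 0 of the 39 collagens, in a comparison where 0.0239% of all genes were called. At an unadjusted p under 0.05 there were 5 collagens, all with negative log2 fold changes, against 6.81% of all genes, and DESeq2 and limma voom also called 0 collagens. The median log2 fold change was -0.02 over the collagens and -0.00 over all genes tested.

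The smallest p belonged to Col6a4, a type VI chain whose human counterpart is a pseudogene. It ran from 0.132 over a median of 1.49 to 3.45 CPM in WT/Veh and from 0 over 0.640 to 0.954 CPM in WT/D-45113, so the groups overlapped. Its log2 fold change was -1.54 (SE of 0.593, adjusted p = 0.635). For Col6a1 the values were 3.23, 6.34 and 16.6 CPM in WT/Veh (lowest, median, highest) and 2.38, 4.39 and 5.42 CPM in WT/D-45113, a log2 fold change of -0.82 (SE of 0.333, adjusted p = 0.644). Without WT/Veh 2F it was -0.52 (adjusted p = 0.813). Col15a1, a multiplexin that sits where basement membranes meet collagen fibres, had 2.38, 3.34 and 4.54 CPM against 1.37, 2.28 and 3.63 CPM, with a log2 fold change of -0.52 (SE of 0.220, adjusted p = 0.652). The 5 WT/D-45113 mice lowest in Col15a1 lay below every WT/Veh mouse.

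Genotype under vehicle was compared next. In 5xFAD/Veh against WT/Veh, 1 collagen was called, Col26a1, and it was lower in 5xFAD. Over all genes 3.86% were called, 3.65% as higher and 0.209% as lower. At an unadjusted p under 0.05 there were 4 collagens, 2 with positive and 2 with negative values, against 11.1% of all genes. The collagen median was -0.03 against -0.02 for all genes, with 18 of 39 collagens on the positive side, so the values of the family were centred close to those of all genes. All 6 type VI genes had negative values, from -0.82 to -0.03, and 4 of 6 type IV genes had positive ones, with no call in either class.

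Col26a1 encodes a small collagen with an EMI domain, first described in mouse testis and ovary. Its transcript was rare. The 8 WT/Veh mice had 0.729 to 1.82 CPM with a median of 0.899, and the 8 5xFAD/Veh mice 0 to 0.530 CPM with a median of 0.231, so the groups did not overlap. In counts these are 11 to 42 in WT/Veh and 0 to 15 in 5xFAD/Veh, where 2 mice had none. What share of all genes tested separates these groups fully was not counted, so the separation cannot be called unusual. A library here had to be at 0.0988 to 0.280 CPM to hold 3 counts, so the lowest values are near what the depth can resolve. The log2 fold change was -2.16 (SE of 0.621, adjusted p = 0.0377). With D-45113 the gene stood between these groups, at 0 to 1.67 CPM (median 0.397) in WT/D-45113 and 0 to 1.48 CPM (median 0.665) in 5xFAD/D-45113.

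The call on Col26a1 was close to the threshold. With 1 mouse left out at a time the adjusted p ran from 0.0186 to 0.0898 and the log2 fold change from -2.43 to -1.99. The call ended without WT/Veh 1F, 1M or 2F, or without 5xFAD/Veh 1F, 2M, 3F, 3M, 4F or 4M, in each case with the direction kept. It also ended with the replicate number as a block (adjusted p = 0.0563), with no filter on low counts (adjusted p = 0.0575) and with scores of choroid plexus, thalamic and meningeal markers in the fit (adjusted p = 0.0695).

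Col4a6, which pairs with Col4a5 in a chain known from smooth muscle basement membranes, had the next smallest p. Its levels were 0.124, 0.679 and 1.50 CPM in WT/Veh (lowest, median, highest) and 0.691, 1.49 and 2.92 CPM in 5xFAD/Veh, with 4 of the 8 5xFAD/Veh mice above every WT/Veh mouse. The log2 fold change was 1.07 (SE of 0.397, adjusted p = 0.19). Col14a1, a fibril-associated collagen, went the other way, at 0.969, 1.43 and 2.49 CPM in WT/Veh and 0.289, 0.850 and 1.54 CPM in 5xFAD/Veh. Its log2 fold change was -0.82 (SE of 0.386, adjusted p = 0.413). Col25a1, the plaque-associated collagen, had 3.00, 3.97 and 5.08 FPKM in WT/Veh and 1.80, 3.37 and 5.06 FPKM in 5xFAD/Veh. Its log2 fold change was -0.20 (SE of 0.176, adjusted p = 0.77), a difference inside the spread between mice.

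**Figure D2:**
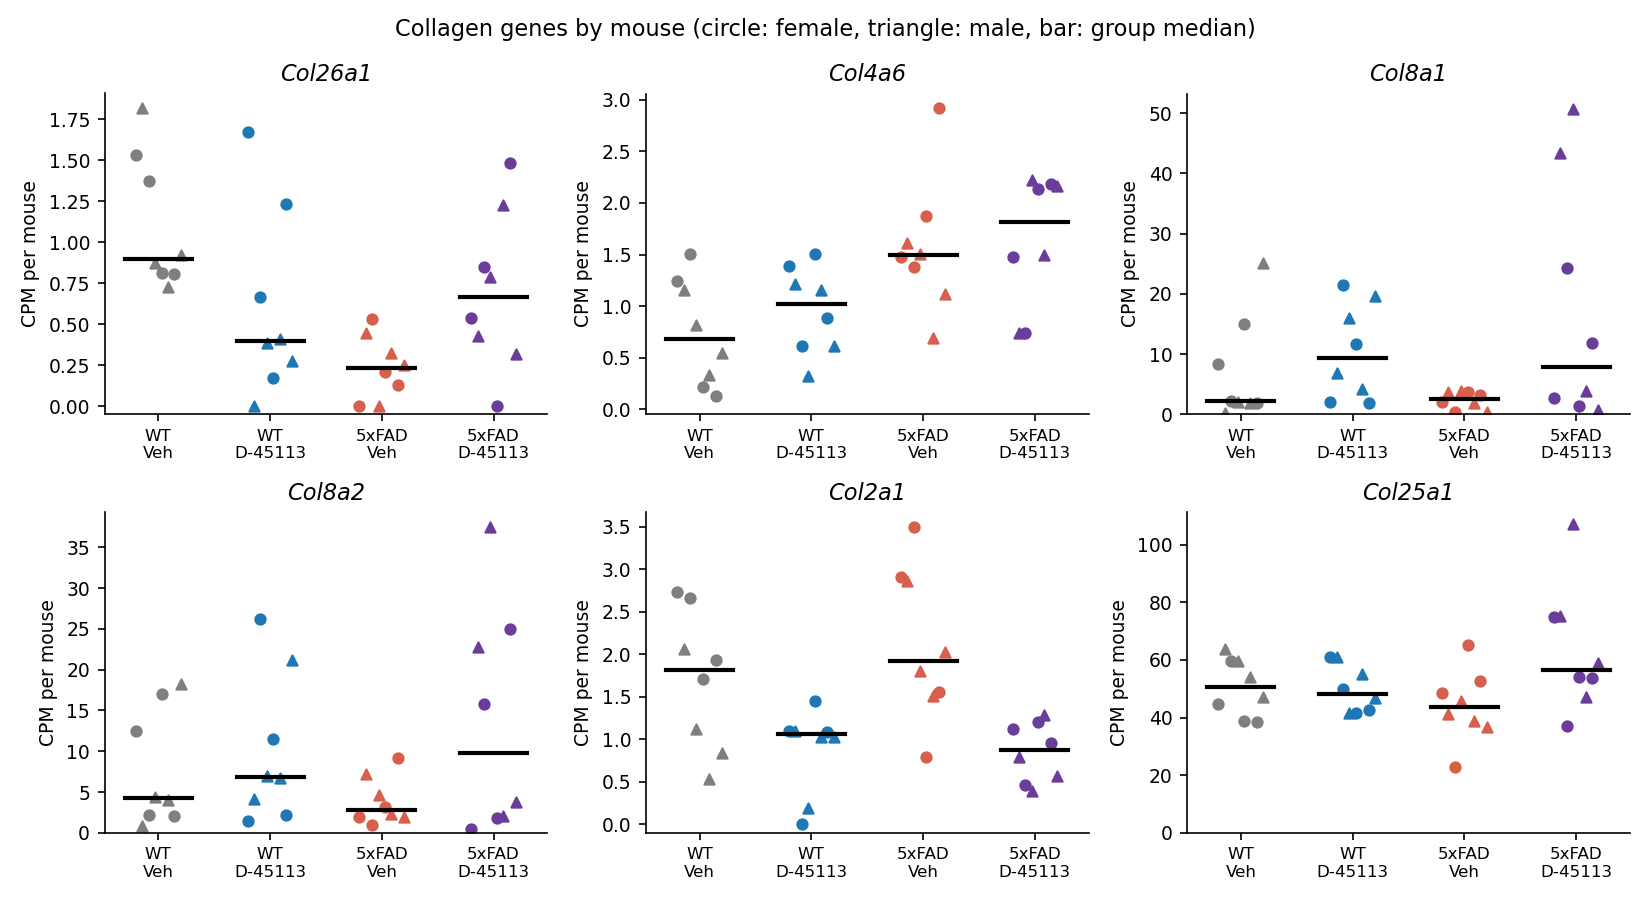
CPM of 6 collagen genes in each of the 32 mice (circles females, triangles males, bars group medians, 8 mice per group). The WT/Veh and 5xFAD/Veh mice do not overlap for Col26a1, and the 5xFAD/Veh mice lie at or below 3.79 CPM for Col8a1, where 5xFAD/D-45113 reaches 50.7 CPM.

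D-45113 in 5xFAD mice gave the only call of a higher collagen. In 5xFAD/D-45113 against 5xFAD/Veh, Col8a1 was called, where 3.96% of all genes were called and 2.21% were called as higher. There were 10 collagens with an unadjusted p under 0.05, 9 with positive values and 1 with a negative value, against 19.9% of all genes. The collagen median was 0.21 against 0.01 for all genes, and 27 of 39 collagens were positive. By class, all 4 transmembrane genes, both short-chain genes tested and 5 of 6 type IV genes had positive values, against 2 of 6 type VI genes.

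Col8a1, the partner chain of Col8a2, had 0.424, 2.60 and 3.79 CPM in 5xFAD/Veh (lowest, median, highest) and 0.764, 7.83 and 50.7 CPM in 5xFAD/D-45113. The groups overlapped: 5 of the 8 5xFAD/D-45113 mice lay above every 5xFAD/Veh mouse (the lowest of these 5 at 3.80 against 3.79 CPM), and the other 3 lay inside their range. The log2 fold change was 2.87 (SE of 0.838, adjusted p = 0.0478). The WT mice had 0.242, 2.15 and 25.2 CPM in WT/Veh and 1.88, 9.28 and 21.5 CPM in WT/D-45113. At least 10 CPM was reached by 2 mice of WT/Veh and 0 of 5xFAD/Veh, and by 4 mice of each D-45113 group.

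Values of choroid plexus markers are given beside it. All 20 of the 20 markers tested had positive values in 5xFAD/D-45113 against 5xFAD/Veh, with a median log2 fold change of 2.33 and 3 called, Otx2, Rdh5 and Ace. Their summed level was 377 to 1568 CPM in 5xFAD/Veh and 392 to 9906 CPM in 5xFAD/D-45113, and Ttr, the defining marker, stood at 17.6 CPM or more in every mouse. In 5xFAD/Veh against WT/Veh, 0 of the 20 were positive and their median was -1.61, and Col8a1 was at -1.59 (SE of 0.814, adjusted p = 0.483). Thalamic markers shared this pattern: 14 of 14 had positive values in 5xFAD/D-45113, with a median of 1.43, 3 called and summed levels of 402 to 2145 CPM against 223 to 597 CPM.

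When the score of the choroid plexus markers entered the fit, Col8a1 came to a log2 fold change of 0.53 (adjusted p = 0.464), and with choroid plexus, thalamus and meningeal scores together to 0.56 (adjusted p = 0.744). Without the 2 mice of 5xFAD/D-45113 highest in Ttr, 2M and 1M, it was 1.65 (adjusted p = 0.33). With the replicate number as a block it was 2.51 (adjusted p = 0.112). The call also ended without 19 of the 32 single mice, at adjusted p of up to 0.121. These mice were WT/Veh 1F and 2F, WT/D-45113 1M, 2M, 3F, 3M and 4M, 5xFAD/Veh 1F, 1M, 2F, 2M, 3F, 3M, 4F and 4M, and 5xFAD/D-45113 1M, 2F, 2M and 4F.

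Col8a2 and Col9a3 were not called but varied in the same way. Col8a2 had 0.215, 0.617 and 2.05 FPKM in 5xFAD/Veh and 0.113, 2.20 and 8.41 FPKM in 5xFAD/D-45113, with a log2 fold change of 1.80 (SE of 0.737, adjusted p = 0.16). Col9a3 had 1.34, 2.17 and 3.55 FPKM and 0.952, 4.26 and 10.5 FPKM, with a log2 fold change of 1.13 (SE of 0.479, adjusted p = 0.175). In both cases 4 of the 5xFAD/D-45113 mice lay above every 5xFAD/Veh mouse and 1 lay below.

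Col2a1, the main collagen of cartilage, was the collagen with the smallest p on the lower side. It had 0.793, 1.91 and 3.50 CPM in 5xFAD/Veh and 0.395, 0.878 and 1.28 CPM in 5xFAD/D-45113, with 3 of the 8 treated mice below every 5xFAD/Veh mouse. The log2 fold change was -1.32 (SE of 0.439, adjusted p = 0.0777). It was called by DESeq2 (adjusted p = 0.0244) and when only these 2 groups were fitted (adjusted p = 0.0389), and came to -0.84 (adjusted p = 0.69) with the 3 marker scores in the fit. Col25a1 had 1.80, 3.37 and 5.06 FPKM in 5xFAD/Veh and 2.88, 4.39 and 8.32 FPKM in 5xFAD/D-45113, a log2 fold change of 0.53 (SE of 0.176, adjusted p = 0.0782), with 3 treated mice above every 5xFAD/Veh mouse. Without 5xFAD/D-45113 2F, its lowest treated mouse, Col25a1 was called, as it was without 5xFAD/Veh 3F or 5xFAD/D-45113 3M, and the adjusted p over single mice left out ran from 0.0364 to 0.246. With the 3 marker scores in the fit it was 0.23 (adjusted p = 0.827), and without the 2 treated mice highest in Ttr 0.29 (adjusted p = 0.438).

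The chains of the vessel basement membrane were not called. Col4a1 had 1.65, 2.33 and 3.56 FPKM in 5xFAD/Veh and 1.29, 2.49 and 3.97 FPKM in 5xFAD/D-45113, with a log2 fold change of -0.01 (adjusted p = 0.992). Col4a2 had 1.91, 2.67 and 3.87 FPKM and 1.98, 3.36 and 5.13 FPKM, with a log2 fold change of 0.30 (SE of 0.202, adjusted p = 0.438). The groups overlapped over most of their range for both genes. Endothelial markers had summed levels of 510.1 to 610.9 CPM in 5xFAD/Veh and 614.8 to 770.0 CPM in 5xFAD/D-45113, ranges that did not overlap. Their score, the mean of centred log2 CPM, did overlap, at -0.204 to 0.0288 in 5xFAD/Veh and -0.0819 to 0.264 in 5xFAD/D-45113. Of these markers 11 of 15 were positive and 1 was called, with a median log2 fold change of 0.19. Across mice, after centring on group means, their score had r = 0.26 with Col4a1 and r = 0.17 with Col4a2. Their part in the differences of Col4a1 and Col4a2 between these groups was not tested. Of the main skin and bone chains, Col1a2 had a log2 fold change of 0.75 (SE of 0.303, adjusted p = 0.15) with 4 treated mice above every 5xFAD/Veh mouse, and Col1a1 one of 0.05 (adjusted p = 0.96). Of 19 meningeal and perivascular fibroblast markers, 15 had positive values here, with a median of 0.60 and 1 called. Their summed level was 274 to 487 CPM in 5xFAD/Veh and 262 to 488 CPM in 5xFAD/D-45113. After the same centring, their score had r = 0.55 with Col1a2 and r = 0.48 with Col1a1. Their part in the differences of these 2 chains between the groups was not tested.

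Genotype under D-45113 and the interaction gave no call among the collagens. In 5xFAD/D-45113 against WT/D-45113, edgeR called 0 of 39, where 5.06% of all genes were called. Here 4 collagens were at an unadjusted p under 0.05, all with positive values, against 18.3% of all genes, and DESeq2 and voom called 0 as well. The median was 0.39 against 0.02 for all genes, with 31 of 39 positive. In the same comparison 20 of 20 choroid plexus markers were positive (median 0.39) and 13 of 14 thalamic markers (median 0.46), and their part in the collagen median was not tested. Col9a2, with 1.99, 2.58 and 5.33 CPM in WT/D-45113 and 1.10, 5.80 and 15.5 CPM in 5xFAD/D-45113, had the smallest p. Its log2 fold change was 0.90 (SE of 0.324, adjusted p = 0.104), with 5 of 8 5xFAD/D-45113 mice above every WT/D-45113 mouse. That value leaned on single mice: it was 1.06 (adjusted p = 0.0278) without 5xFAD/D-45113 1M, the lowest mouse, and 0.53 (adjusted p = 0.394) without 4F, the highest.

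Col15a1 had 1.37, 2.28 and 3.63 CPM in WT/D-45113 and 1.83, 3.70 and 4.36 CPM in 5xFAD/D-45113, a log2 fold change of 0.54 (SE of 0.221, adjusted p = 0.165). Col16a1, a fibril-associated collagen, had 0.772, 3.11 and 3.86 CPM and 2.02, 3.88 and 7.32 CPM, a log2 fold change of 0.65 (SE of 0.283, adjusted p = 0.199). For both genes at least 4 of the 5xFAD/D-45113 mice stood above every WT/D-45113 mouse and the rest overlapped.

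The interaction asks whether the treatment difference in 5xFAD differs from that in WT. edgeR called 0 of 39 collagens and 0 of 16723 genes (0%), with 3 collagens and 9.51% of all genes at an unadjusted p under 0.05. DESeq2 called 14 genes, 0 of them collagens, and voom called 0. The collagen median was 0.40 against 0.02 for all genes, and 32 of 39 were positive, where the 20 choroid plexus markers had a median of 2.03 and the 14 thalamic markers 1.39. The largest values were those of Col26a1 (2.38, SE of 0.859, adjusted p = 0.376) and Col8a1 (2.33, SE of 1.12, adjusted p = 0.518). With the choroid plexus score in the fit Col8a1 was at 0.12 (adjusted p = 0.968). Col25a1 had 0.55 (SE of 0.249, adjusted p = 0.477), and 0.23 (adjusted p = 1) with the 3 marker scores. The part of these markers in the collagen medians was not tested.

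**Figure D3:**
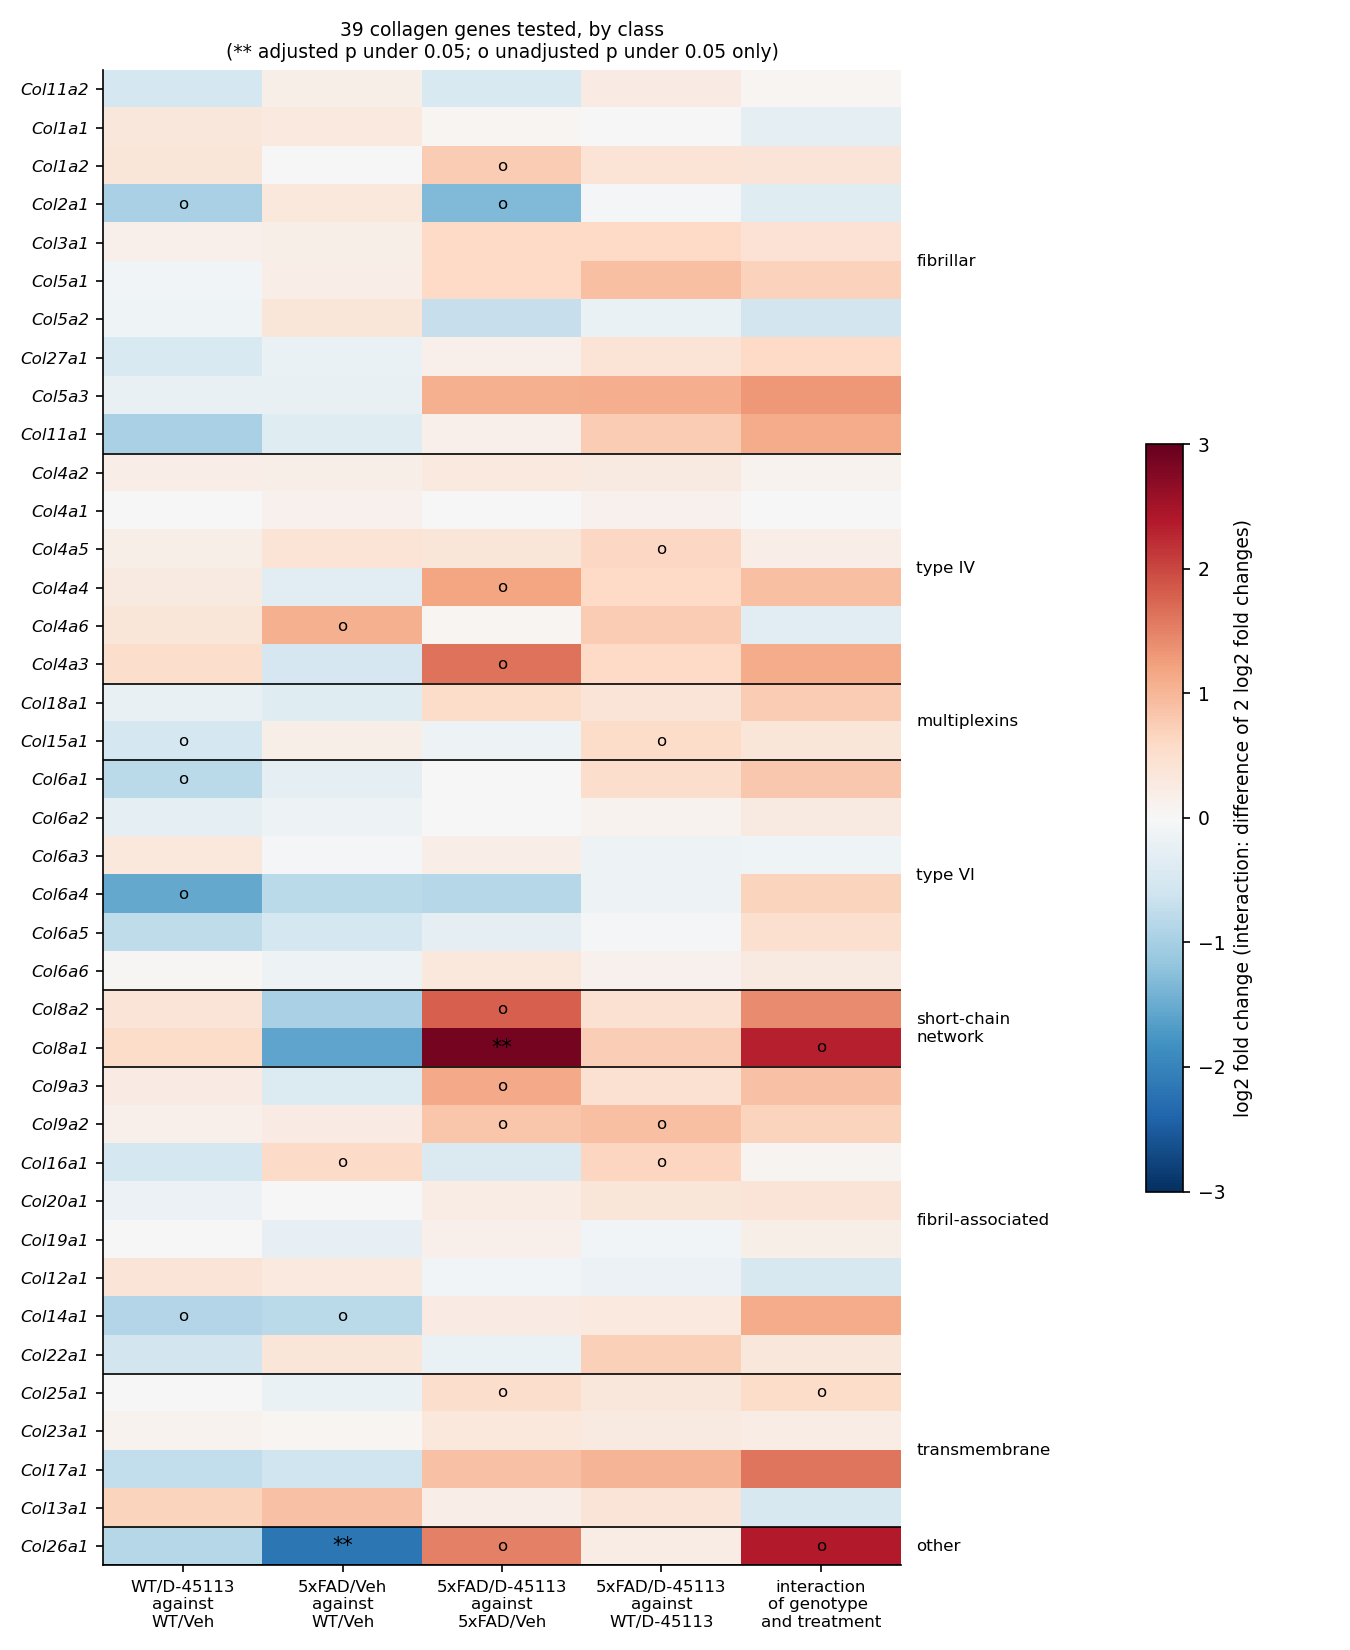
Log2 fold changes of the 39 collagen genes tested, by class (rows) and comparison (columns), red for positive and blue for negative values. The marks ** stand on Col26a1 in 5xFAD/Veh against WT/Veh (-2.16) and on Col8a1 in 5xFAD/D-45113 against 5xFAD/Veh (2.87), the 2 calls at an adjusted p under 0.05, and o marks an unadjusted p under 0.05.

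Females and males were compared over the 4 groups, with 16 mice of each sex. edgeR called 0 of 39 collagens (0.0478% of all genes), as did DESeq2 and voom, with 4 collagens and 4.14% of all genes at an unadjusted p under 0.05, and the collagen median was 0.15 (females minus males). Col5a1, which seeds type I fibres, had the smallest p. It had 0.0854, 1.91 and 5.15 CPM in females (lowest, median, highest) and 0.313, 0.846 and 2.57 CPM in males, a log2 fold change of 1.10 (SE of 0.301, adjusted p = 0.607). Col4a1 and Col4a2 had log2 fold changes of 0.36 (SE of 0.114, adjusted p = 0.899) and 0.37 (SE of 0.131, adjusted p = 1). For all 3 genes the sexes overlapped.

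The genes were next compared from mouse to mouse inside the groups, since the spread inside groups was wide. Each collagen was set against 5 marker scores (choroid plexus, thalamus, meningeal fibroblasts, endothelium, mural cells) over the 32 mice after both were centred on their group means, 195 relations in all, with permutation p over 100000 draws. The choroid plexus score rose with Col8a1 (r = 0.92, rho = 0.92), Col8a2 (r = 0.92, rho = 0.92) and Col9a3 (r = 0.86, rho = 0.87), each with a permutation p of 1e-05 for both measures, the smallest the draws can give, and adjusted p = 0.00065. Within the single groups, r ran from 0.77 to 0.95 for Col8a1 and from 0.86 to 0.95 for Col8a2, and from 0.44 to 0.97 for Col9a3. Without the 2 mice farthest from the median of the score, r was 0.91, 0.92 and 0.84.

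Col4a4 and Col6a5 followed with r = 0.63 each (rho = 0.61, permutation p = 0.00052 and 0.00067, adjusted p = 0.0145 and 0.0218 for Col4a4; rho = 0.59, permutation p = 0.00075 and 0.00146, adjusted p = 0.0183 and 0.0294 for Col6a5). With the thalamus score, Col1a2 had r = 0.75 (rho = 0.72, permutation p = 5e-05 and 7e-05, adjusted p = 0.00244 and 0.00341), and r = 0.67 without the 2 farthest mice, although r within single groups ran from -0.50 to 0.94. Col3a1, the fibre partner of type I collagen, had r = 0.66 with the same score (rho = 0.58, permutation p = 0.00015 and 0.00124, adjusted p = 0.00487 and 0.0294), and r = 0.52 without the 2 farthest mice. Within single groups r of Col3a1 ran from -0.06 to 0.90. With the choroid plexus score, r within single groups ran from 0.14 to 0.90 for Col4a4 and from 0.30 to 0.91 for Col6a5. Col6a6 rose with the mural cell score (r = 0.65, rho = 0.64, permutation p = 0.00014 and 0.00024, adjusted p = 0.00487 and 0.00936). Its transcript was rare, with a median count of 7 over the 32 libraries and a count of 0 in 4 of them.

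Of the meningeal fibroblast score, whose cells are a known source of fibrillar collagens, only Col1a2 among the 39 passed on both measures (r = 0.55, rho = 0.56, permutation p = 0.00132 and 0.00151, adjusted p = 0.0286 and 0.0294). No collagen passed on both measures with the endothelial score, where the highest r was 0.51. Col25a1 reached r = 0.44 with the thalamus score (rho = 0.45, permutation p = 0.00698 and 0.0137, adjusted p = 0.0907 and 0.127), and failed the correction.

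**Figure D4:**
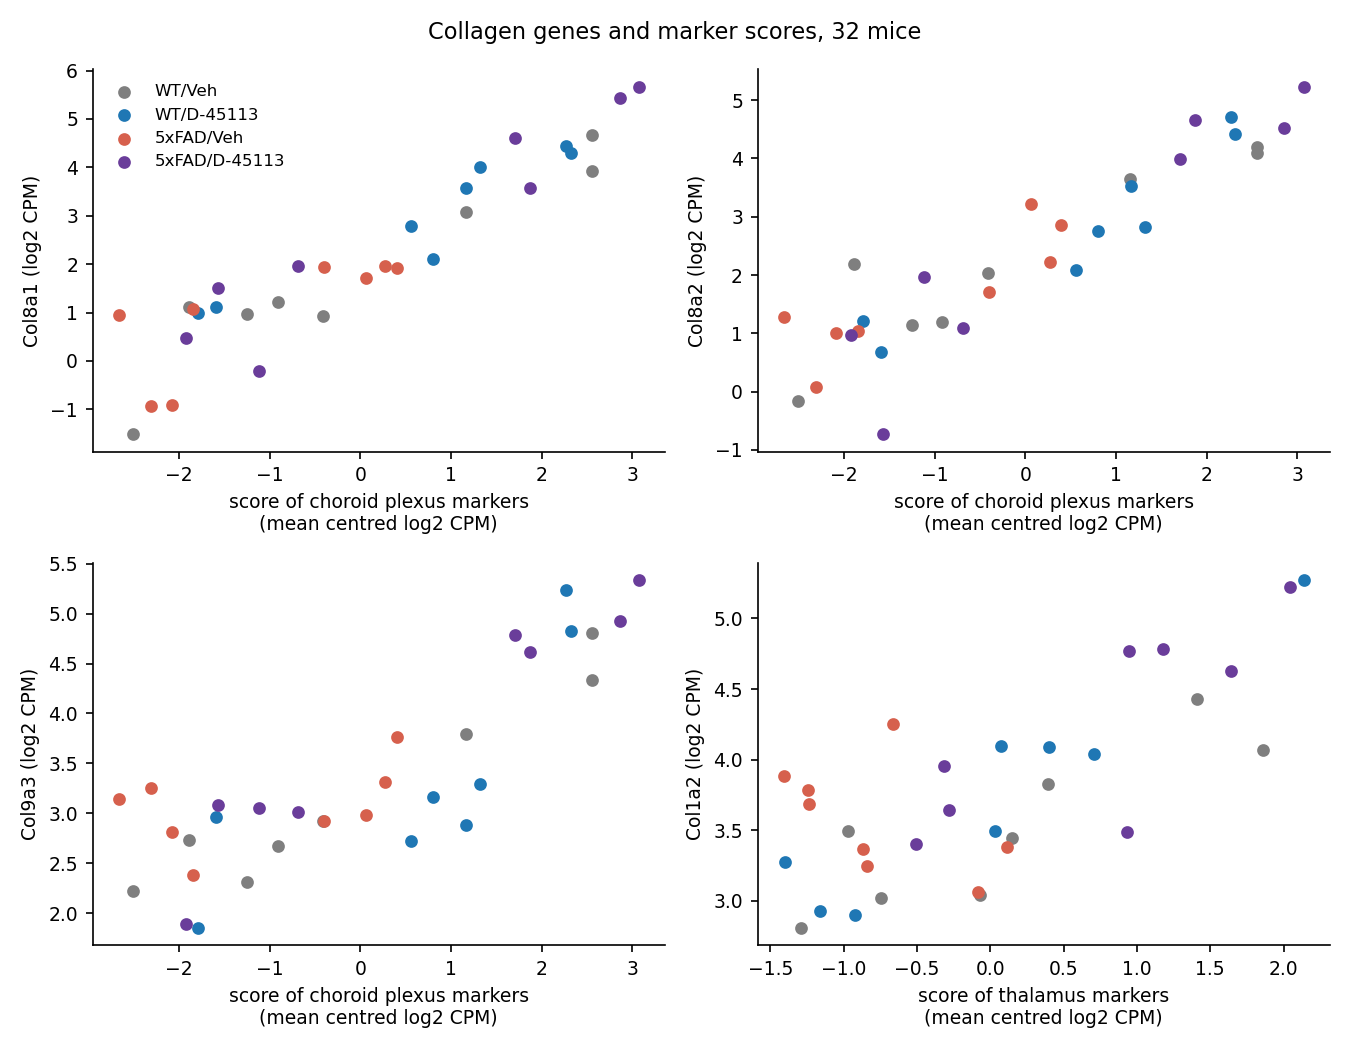
Log2 CPM of Col8a1, Col8a2 and Col9a3 against the choroid plexus score, and of Col1a2 against the thalamus score, with a point for each of 32 mice coloured by group and no group centring. Mice of all 4 groups lie along the same band for Col8a1 and Col8a2 (r = 0.92 after group centring).

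Chains of the same collagen were then paired, 9 pairs over the 32 group-centred mice. Col8a1 and Col8a2 varied together most closely (r = 0.86, rho = 0.89, permutation p = 1e-05 for both measures, adjusted p = 4.5e-05), followed by Col4a1 and Col4a2 (r = 0.81, rho = 0.83, permutation p = 1e-05, adjusted p = 4.5e-05). Without the 2 farthest mice r was 0.88 and 0.81. Col8a1 and Col8a2 each had r = 0.92 with the choroid plexus score, and the part of that score in the r of this pair was not tested. Col1a1 and Col1a2 had r = 0.65 (rho = 0.65, permutation p = 0.00025 and 9e-05, adjusted p = 0.00075 and 0.00027). Col6a1 and Col6a2, and Col4a3 and Col4a4, had r = 0.51 and r = 0.54 (adjusted permutation p = 0.0146 and 0.00567).

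The other 4 pairs did not pass on both measures. Col11a1 and Col11a2 passed on rank alone (rho = 0.45, adjusted permutation p = 0.0212; r = 0.32, adjusted permutation p = 0.13), as did Col5a1 and Col5a2 (rho = 0.41, adjusted permutation p = 0.0382; r = 0.33, adjusted permutation p = 0.13). Col9a2 and Col9a3 had r = -0.06 (rho = -0.05, permutation p = 0.789 and 0.801, adjusted p = 0.789 and 0.801), and Col4a5 and Col4a6 r = 0.19 (rho = 0.21, permutation p = 0.392 and 0.312, adjusted p = 0.441 and 0.351). The FPKM ratio of Col9a2 to Col9a3 ranged from 0.0452 to 2.20 over the mice, whereas that of Col4a1 to Col4a2 stayed between 0.539 and 1.44 with a median of 0.839. The type I protein holds more Col1a1 than Col1a2 chains, and the FPKM ratio of Col1a1 to Col1a2 transcripts had a median of 1.05. That ratio depends on the gene lengths used, 6563 bp for Col1a1 and 12426 bp for Col1a2. Their median counts over the 32 libraries were 138.5 and 267.

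The start regions (promoters) of the pairs that varied most closely together are shown, to show how a shared and an unshared start region look. The windows come from RefSeq (build GRCm38.p6), run from 250 bases before to 50 bases after the annotated start, and are written 5′ to 3′ on the gene's strand. Capitals mark the GC box GGGCGG, the CCAAT box CCAAT and the TATA box TATAAA on either strand, so that CCGCCC and ATTGG are the same boxes read on the other strand. Overlapping matches were counted separately.
Col4a1 (chr8:11312777-11313076, minus strand): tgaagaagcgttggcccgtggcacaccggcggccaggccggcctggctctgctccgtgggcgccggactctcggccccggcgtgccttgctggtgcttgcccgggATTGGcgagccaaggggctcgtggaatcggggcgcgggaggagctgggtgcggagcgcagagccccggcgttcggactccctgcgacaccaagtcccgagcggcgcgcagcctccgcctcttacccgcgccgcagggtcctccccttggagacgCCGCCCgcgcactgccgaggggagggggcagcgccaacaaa
Col4a2 (chr8:11312555-11312854, plus strand): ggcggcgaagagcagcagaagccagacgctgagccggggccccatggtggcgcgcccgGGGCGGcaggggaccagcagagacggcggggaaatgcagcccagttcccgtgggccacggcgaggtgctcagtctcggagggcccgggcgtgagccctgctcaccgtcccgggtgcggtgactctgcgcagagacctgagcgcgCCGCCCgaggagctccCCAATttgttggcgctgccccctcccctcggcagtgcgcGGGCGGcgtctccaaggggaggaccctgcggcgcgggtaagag
Col8a1 (chr16:57754688-57754987, minus strand): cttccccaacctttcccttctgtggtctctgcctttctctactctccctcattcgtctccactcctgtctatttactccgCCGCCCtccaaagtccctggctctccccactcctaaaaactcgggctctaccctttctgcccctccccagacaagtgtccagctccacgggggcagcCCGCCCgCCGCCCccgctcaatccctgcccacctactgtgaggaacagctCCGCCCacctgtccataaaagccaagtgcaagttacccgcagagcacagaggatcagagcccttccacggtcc
Col8a2 (chr4:126286544-126286843, plus strand): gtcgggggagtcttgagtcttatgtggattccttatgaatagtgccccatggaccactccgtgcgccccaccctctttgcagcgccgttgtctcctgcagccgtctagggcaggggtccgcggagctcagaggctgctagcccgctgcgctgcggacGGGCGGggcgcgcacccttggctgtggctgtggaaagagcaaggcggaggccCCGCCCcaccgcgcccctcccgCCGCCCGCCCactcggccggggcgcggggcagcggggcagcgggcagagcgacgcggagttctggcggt

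Col4a1 and Col4a2 lie head to head on chromosome 8, and their windows share 78 bases. In the count table, their start sites are 21 bp apart and their gene spans overlap by 22 bp on opposite strands; whether the counts used strand is not given in the sources used here. Col8a1 and Col8a2 lie on chromosomes 16 and 4, and so share no promoter. Col4a1 holds 1 GC box and Col4a2 3, with 1 CCAAT box in each. Col8a1 and Col8a2 hold 4 GC boxes each and no CCAAT or TATA box, where 2 of the GC boxes of Col8a2 overlap. Of the 44 members, 35 had a window, and 22 of these held a GC box (62.9%), 12 a CCAAT box (34.3%) and 5 a TATA box (14.3%). Among all 27025 windows the shares were 35.9%, 37.9% and 14.2%.

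Head-to-head pairs were not alike in how closely they varied. The other 2 are Col4a3 and Col4a4 on chromosome 1, with starts 72 bp apart and r = 0.54, and Col4a5 and Col4a6 on chromosome X, with starts 1309 bp apart and r = 0.19. Their levels differed too: median counts were 314.5 for Col4a1, 339.5 for Col4a2, 6 for Col4a3, 24 for Col4a4, 49.5 for Col4a5 and 23.5 for Col4a6. Counts this low add noise that lowers r, and the part of level in these r values was not tested. In all, the 44 genes lie on 15 chromosomes, and 8 neighbouring pairs are within 200000 bp of each other, among them Col6a4, Col6a5 and Col6a6 in a row on chromosome 9. Gene spans of another gene overlap 28 of the members, and 18 of them on the opposite strand, mostly by transcripts with a median count of 0. The exceptions on the opposite strand are Slc19a1, which shares 8825 bp with Col18a1 and has a median count of 303, Nt5dc1, which spans Col10a1, Tcfl5 at Col9a3, the antisense transcript Gm15418, which shares 6081 bp with Col4a1 and has a median count of 0.5, and the pair Col4a1 and Col4a2. On the same strand, 9230112E08Rik shares 741 bp with Col20a1 and has a median count of 140, where Col20a1 has 49.5.

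Spread between mice of a group was wide. The SD of log2 CPM inside groups had a median of 0.748 over the 39 collagens and 0.375 over all genes tested, and 37 of 39 collagens stood above the latter. Many collagens are rare, and rare genes vary more in any count data, so the share of level in this difference was not tested. Col8a1 (SD 1.77) and Col8a2 (SD 1.61) were at the 99.7th and 99.6th percentiles of all genes. Col25a1 (SD 0.372) and Col4a1 (SD 0.368) were the steadiest, near the median gene.

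**Figure D5:**
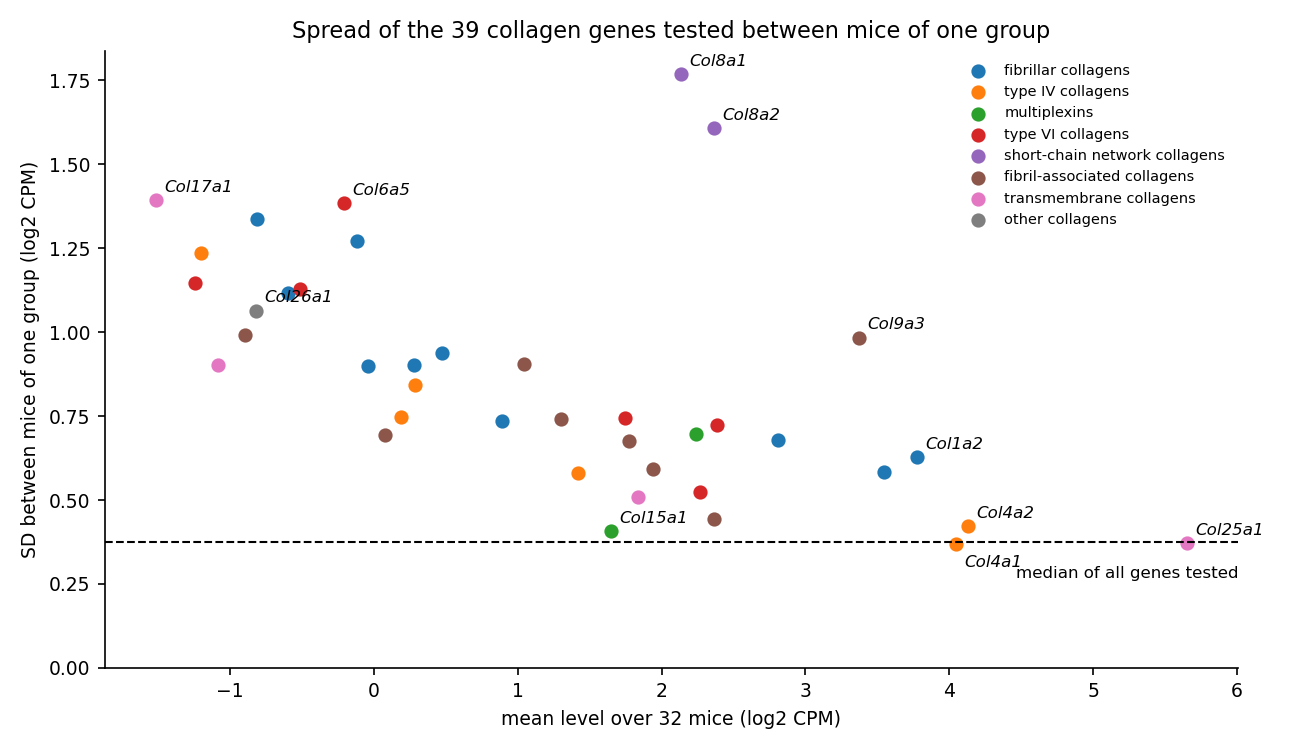
SD of log2 CPM between mice of one group against the mean log2 CPM for the 39 collagen genes tested, coloured by class, with the median SD of all genes tested as a dashed line (0.375). Col8a1 and Col8a2 stand high above other collagens of like level, and Col25a1 and Col4a1 lie at the line.

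The 5 members left did not reach the counts needed for a test. Col10a1 and Col24a1 had a median count of 0 over the 32 libraries, Col9a1 1.5, Col28a1 2 and Col7a1 3. They were left out of the main fit, so no difference between groups is given for them. Col24a1 was at 0 in 3 of 8 mice of WT/Veh and in 8 of 8 mice of 5xFAD/D-45113, and the most counts any mouse had was 5. In all, 16 of the 44 members had at least 1 mouse with a count of 0.

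Genes that build, bind or degrade collagen were counted beside the collagens. In 5xFAD/Veh against WT/Veh, where 3.65% of all genes were called as higher and 0.209% as lower, 2 of 22 genes of folding and crosslinking were called higher and 1 lower. Lox, which crosslinks collagen and elastin, went from 0.545 ± 0.264 to 4.16 ± 1.17 CPM (log2 fold change 2.92, SE of 0.334, adjusted p = 5.64e-08). P4ha3 had 1.11 (SE of 0.283, adjusted p = 0.0137) and P4ha2 -0.88 (SE of 0.176, adjusted p = 0.000847), both subunits of the prolyl 4-hydroxylase that stabilises the triple helix. Of 9 collagen receptors, 2 were called and both were higher: Lair1, an inhibitory receptor of immune cells (1.43, SE of 0.160, adjusted p = 3.4e-08), and Mrc2, a receptor that takes up collagen (1.47, SE of 0.184, adjusted p = 3.19e-07). Of 12 genes of degradation and its inhibitors, the protease Ctsl and the inhibitor Timp1 were called, at 1.03 (SE of 0.139, adjusted p = 1.27e-06) and 4.25 (SE of 0.721, adjusted p = 7.49e-05). Markers of cells that react to plaques were called in this comparison too. They were higher for 14 of 14 markers of plaque-associated microglia (summed level 381 to 631 CPM in WT/Veh and 1368 to 2011 CPM in 5xFAD/Veh) and for 10 of 12 of reactive astrocytes (306 to 816 CPM and 2298 to 3568 CPM), a list that holds Timp1. Their part in the calls of these related genes was not tested.

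In the TGF-beta pathway, a known driver of collagen transcription, 4 of 17 genes were called higher in the same comparison, among them Tgfbr2 (1.21, SE of 0.120, adjusted p = 2.46e-09), Tgfb1 (1.45, SE of 0.164, adjusted p = 4.45e-08) and Tgfbr1 (0.78, SE of 0.175, adjusted p = 0.00337). None of 12 genes of secretion and propeptide processing, 17 basement membrane partners or 10 small leucine-rich proteoglycans was called by edgeR, with 0, 0 and 1 gene at an unadjusted p under 0.05.

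In 5xFAD/D-45113 against 5xFAD/Veh, calls in these lists went both ways, where 2.21% of all genes were called as higher and 3.96% in either direction. Among folding genes P4ha1 was lower (-0.57, SE of 0.113, adjusted p = 0.00511) and P4ha2 higher (0.86, SE of 0.176, adjusted p = 0.00619). Of 12 genes of secretion and processing, Pcolce2, which speeds removal of the C-propeptide, was higher (1.16, SE of 0.254, adjusted p = 0.00893) and Adamts3, which removes the N-propeptide, lower (-0.82, SE of 0.222, adjusted p = 0.0308). Of 17 basement membrane partners, the linker Nid2 was higher (1.45, SE of 0.392, adjusted p = 0.0308) and Pxdn, which crosslinks type IV collagen, lower (-0.89, SE of 0.228, adjusted p = 0.023).

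Genes of degradation and its inhibitors were called higher in 4 of 12 cases there and lower in 0. They included Timp4 (0.71, SE of 0.162, adjusted p = 0.0117), Timp3 (0.55, SE of 0.141, adjusted p = 0.0211) and Mmp9 (1.43, SE of 0.400, adjusted p = 0.0357), the first 2 of which are inhibitors. Fmod, a proteoglycan that binds fibres, was the only 1 of 10 of its list called (1.55, SE of 0.422, adjusted p = 0.0317). In the TGF-beta list Tgfb1 was lower (-0.62, SE of 0.161, adjusted p = 0.0243) and Smad6, an inhibitor of the pathway, higher (1.20, SE of 0.327, adjusted p = 0.031). All choroid plexus and thalamic markers had positive values in the same comparison, and their part in these calls was not tested.

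In 5xFAD/D-45113 against WT/D-45113 2 of 9 receptors and 3 of 22 folding and crosslinking genes were called, against 5.06% of all genes. Also called, all as higher, were 4 of 17 genes of the TGF-beta pathway and 2 of 12 of degradation and its inhibitors. Of the markers of plaque-associated microglia, 11 of 14 were called higher, and of those of reactive astrocytes 8 of 12, and their part in these calls was not tested. Lox had a log2 fold change of 1.95 (SE of 0.322, adjusted p = 9.05e-05), P4ha3 one of 1.30 (SE of 0.287, adjusted p = 0.00405) and P4ha1 one of -0.51 (SE of 0.113, adjusted p = 0.00445). Lair1 and Mrc2 were higher by 1.24 (SE of 0.160, adjusted p = 1.56e-06) and 1.01 (SE of 0.184, adjusted p = 0.000382). Of the basement membrane partners, Pxdn was lower (-0.80, SE of 0.228, adjusted p = 0.0322) and the laminin chain Lamb2 higher (0.45, SE of 0.129, adjusted p = 0.0337). Both comparisons with WT mice use different mice, 8 against 8 each.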

How the data were processed

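Hippocampal RNA-seq of 32 mice was analysed, with 8 mice in each of 4 groups taken from the labels. The deposited raw count table gives whole reads per gene before normalization. The deposited FPKM table was made by the authors from the counts by dividing each count by gene length and by 1 library size per mouse, which was 0.8985 to 1.087 times the total count. Reads were mapped to mm10 per the labels; which aligner, counter and strand setting were used is not given in the sources used here. Every value column was matched to a mouse, with 0 left over.

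Counts were fitted in R 4.3.3 with edgeR 4.0.16 (filterByExpr by group, TMM, robust quasi-likelihood, 4 group means over 32 libraries). P-values were adjusted by Benjamini-Hochberg over 16723 genes and called at 0.05. Sex was tested by adding it to the groups. The SE is the absolute log2 fold change divided by the square root of F, and none is given for values near 0. Nothing in the labels states litters or batches, so the fit treats the mice as independent, and any part of litter or batch was not tested. Total counts of 10707410 to 30368498 put 3 counts at 0.0988 to 0.280 CPM.

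A marker score is the mean log2 CPM (prior count 2) of a list, each gene centred on its mean. Relations were tested by permuting mice within groups 100000 times. Promoter motifs were counted in RefSeq windows. The members and lists were chosen with earlier results of these data known. Genes named are, per comparison, the 3 members with the smallest p, the 10 members highest in WT/Veh, called members, and up to 3 called genes of each related or marker list, 4 defining markers and 3 genes that check the genotype; other members are named after their values were seen.

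Alternatives tried were DESeq2 1.42.0, RLE size factors, limma 3.58.1 (voom, and trend on log2 FPKM with a pseudocount of 1 or 0.1), other filters, sex, the replicate number or marker scores as covariates, only the groups compared, and each mouse left out. The script was tested on simulated data. Python 3.11.15 and matplotlib 3.10.9 gave the figures.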

Additional observations from a re-analysis of the deposited data

Results flagged for a closer look

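Within groups of 8 mice, 76 sets of values of 19 collagens were checked for a mouse far from the rest, where chance picks about 1 set in 20. The gap to the nearest mouse, as a share of the range of log2 CPM, exceeded the 95% critical value of Dixon's test in 2 sets. Col11a2 was lowest in WT/D-45113 2F, with 2.17 CPM against 7.20 CPM in the nearest mouse (share 0.619). Col1a1 was lowest in WT/Veh 3F, with 2.18 CPM against 5.09 CPM in the nearest mouse (share 0.601).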

How the results depend on the processing

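None of the 18 gene results followed under the alternatives changed direction. For the other collagens only calls were counted under the alternatives. List medians, related genes and correlations were not compared between settings. In 5xFAD/Veh against WT/Veh, 0 collagens were called in place of 1 with no filter on low counts (602 genes called in all), with a mean of at least 1 CPM or 1 FPKM (where Col26a1 was not tested), with the replicate block and with the 3 marker scores as covariates. Over the 12 settings that tested it, the adjusted p of Col26a1 ran from 0.00433 to 0.0695, under 0.05 in 9. In 5xFAD/D-45113 against 5xFAD/Veh, 0 were called in place of 1 with no filter, with sex as a covariate, with the replicate block, with the 3 scores, with the choroid plexus score alone, without the 2 mice highest in Ttr, with voom and in each of the 3 FPKM fits, and 2 with DESeq2. With only these groups fitted, Col2a1 was called (adjusted p = 0.0389) and Col8a1 was not (0.067). Over 14 settings the adjusted p of Col8a1 ran from 0.00754 to 0.744, under 0.05 in 3. In 5xFAD/D-45113 against WT/D-45113, 1 was called in place of 0 without the 2 mice highest in Ttr (Col9a2, 1.08, adjusted p = 0.0421). The choroid plexus score alone and the 2 mice left out were chosen after seeing the data. Why calls changed between settings was not tested.

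With each mouse left out in turn, the number of collagens called ran from 0 to 1 in 5xFAD/Veh against WT/Veh, from 0 to 2 in 5xFAD/D-45113 against 5xFAD/Veh, and from 0 to 1 in 5xFAD/D-45113 against WT/D-45113, and stayed at 0 in the other 3 comparisons. Col2a1 was called without WT/D-45113 2F (adjusted p = 0.0303). For single genes, 210 of 227 other settings and 543 of 576 fits with a mouse left out kept the side of the threshold. Most of these results were not called in the main fit, so these counts say little about the calls. Col26a1 kept its call in 9 of 12 settings and in 23 of 32 fits with a mouse left out. Col8a1 kept its call in 3 of 14 settings and in 13 of 32 such fits. Counts over all genes moved more: D-45113 in 5xFAD gave 662 genes, 1126 with DESeq2, 379 with no filter, 420 with the choroid plexus score, 222 without the 2 mice and 6 with the 3 scores; D-45113 in WT gave 4, and 26 with DESeq2; the interaction gave 0, and 14 with DESeq2.

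The labels do not say whether replicate numbers pair the mice, and the main fit did not pair them. Same-numbered mice had a median r of 0.049 (-0.234 to 0.282) in their deviations, over 0.1 in 17 of 48 pairs. Other mice of the same sex had a median r of 0.0016. When a mouse was set against the 8 mice of another group, its own number was the closest match in 20 of 96 cases. Of those 8 mice 1 carries the same number, and whether 20 is more than unpaired mice would give was not tested. Same-numbered mice are also of the same sex, which was not taken out of the deviations. With the replicate block, Col26a1 was at -2.19 (adjusted p = 0.0563) and Col8a1 at 2.51 (adjusted p = 0.112). Depth limits the rare collagens, as 16 of 44 had a count of 0 in at least 1 mouse.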
